A study of Caenorhabditis elegans with 2 samples.

Results

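The nuclear genes for proteins of the mitochondrial ribosome were examined for binding of SEA-1. In Caenorhabditis elegans this T-box protein is one of the autosomal signals that count against the X chromosomes in sex determination. Members were the protein-coding genes whose Ensembl symbol on assembly WBcel235 begins with mrpl- (large subunit) or mrps- (small subunit), which gave 70 of 19973 nuclear coding genes, 41 of the large and 29 of the small subunit. All 70 have a product name in RefSeq, and in 69 that name contains the word ribosomal; the exception was mrps-27, named there for an Ig-like domain. RefSeq names the product of mrps-18C as a large subunit protein and that of mrpl-48 for a domain of a small subunit protein. The symbol and the RefSeq name thus do not always give the same subunit, and subunits are given here by symbol. The data are chromatin immunoprecipitations with an antibody against GFP from 2 biological replicates of whole early embryos (0 hour), collected by bleaching, which form 1 group with no second condition. Both replicates are strain OP129, which carries an integrated transgene of sea-1 tagged with TY1, EGFP and 3xFLAG and an unc-119(+) marker in an unc-119(ed3) background, so the values describe the tagged protein made from the transgene in pooled embryos. Chromatin was sheared by sonication to a size range of 200-800. The files are the authors' peak lists on ce11, the same assembly as WBcel235; their read depth is unknown.

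Mitochondria carry their own ribosomes, which make the few respiratory chain subunits encoded in mitochondrial DNA. Their RNA is mitochondrial, but their proteins are encoded in the nucleus, made in the cytosol and imported. In worms, knockdown of several of these genes, mrps-5 among them, is known to induce the mitochondrial unfolded protein response and to lengthen life. Many C. elegans genes lie in operons, where a downstream gene may have no promoter of its own next to its annotated start.

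Peaks were assigned by their summit to a promoter window, which spanned 1000 bp before and 200 bp after the 5′ end of each annotated coding transcript. The height of a peak is the authors' signal value, which has no stated normalization. Levels were compared within a list, and replicate values were set side by side and correlated without a stated common scale. Of the 70 genes, 8 had a summit of the conservative list (11.4%, 95% Wilson interval 5.91 to 20.96, counting error only), against 3.28% of all coding genes. The conservative list holds 1249 peaks that both replicates ranked alike, at an irreproducible discovery rate (IDR) of 0.01 or less. The 8 genes were mrps-28, mrpl-23, mrps-21, mrpl-12, mrpl-45, mrpl-28, mrps-35 and mrpl-15, each at a different peak. No gene set was tested, so the difference from all coding genes is given as counts. Only 3 of the 8 summits, at mrpl-23, mrpl-28 and mrpl-15, were at least as close to the member's 5′ end as to that of any other coding gene.

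The sequences around 4 of these summits are printed, the only ones of the 8 that hold either of the 2 sequences marked below. They were picked for that and do not stand for all 8. Each is given 60 bp to either side of the summit, on the strand of the member, read from the RefSeq sequence of WBcel235. In the first, at V:19643186-19643306, the capitals mark the reverse complement of GGTTCGA, the core of the B box by which RNA polymerase III genes such as tRNA genes are recognised. In the next 3, at II:156063-156183, III:1202303-1202423 and III:10707218-10707338, the capitals mark CGCAAAC, which the 3 windows share.
mrps-28: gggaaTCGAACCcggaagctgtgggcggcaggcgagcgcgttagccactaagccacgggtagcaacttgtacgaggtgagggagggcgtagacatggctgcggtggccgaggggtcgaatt
mrpl-28: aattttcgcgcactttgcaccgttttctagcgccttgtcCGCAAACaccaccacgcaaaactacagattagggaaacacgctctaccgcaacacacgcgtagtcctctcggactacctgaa
mrpl-45: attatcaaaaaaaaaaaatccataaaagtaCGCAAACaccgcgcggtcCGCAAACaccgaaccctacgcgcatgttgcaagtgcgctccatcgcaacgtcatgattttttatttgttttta
mrpl-12: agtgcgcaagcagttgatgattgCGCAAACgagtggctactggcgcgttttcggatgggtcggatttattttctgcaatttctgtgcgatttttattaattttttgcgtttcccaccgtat

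The 2 strongest peaks belonged to windows with a snoRNA gene, whose RNA guides the modification of other RNAs. At mrps-28, which encodes a small subunit protein, the peak (V:19643132-19643353, 222 bp) had a signal value of 385 and was the 16th strongest of the 1249. Its overlapping peaks had 184 in replicate 1 and 193 in replicate 2, where they ranked 49 and 46. The values of the 2 replicates have no stated common scale. The peak was in both replicates' own thresholded lists. The summit lay 993 bp upstream of mrps-28, at the edge of the window, in an intron of the neighbouring gene Y43F8C.7, which starts 209 bp from mrps-28 and runs the other way. It lay 59 bp upstream of the snoRNA gene Y43F8C.22 (V:19643050-19643187, minus strand). The B box core (V:19643191-19643197) was on the snoRNA's strand, where its last base lay 4 bp and its first base 10 bp upstream of the annotated 5′ end.

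At mrpl-23, the gene for large subunit protein uL23m, the summit also lay in an intron and near a snoRNA gene. No B box core was within 100 bp of this summit. The mrpl-23 peak (I:6212709-6213028) had a signal value of 239, with 123 in replicate 1 and 104 in replicate 2, and was also in both own lists. The summit lay 984 bp upstream of mrpl-23, in an intron of the upstream gene fars-1, a phenylalanyl-tRNA synthetase gene, and 45 bp upstream of the snoRNA gene T08B2.13 (I:6212696-6212824, minus strand). The genes fars-1 and mrpl-23 are on the same strand with 95 bp between them. These were the only 2 of 64 members whose strongest peak was near (100 bp or less from) a small RNA gene, that is a snoRNA, tRNA or snRNA gene, and 1.15% of all coding genes with a peak had one there. Without peaks near such genes 6 members kept a conservative peak (8.57%, interval 3.99 to 17.5), against 2.85% of coding genes.

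**Figure D1:**
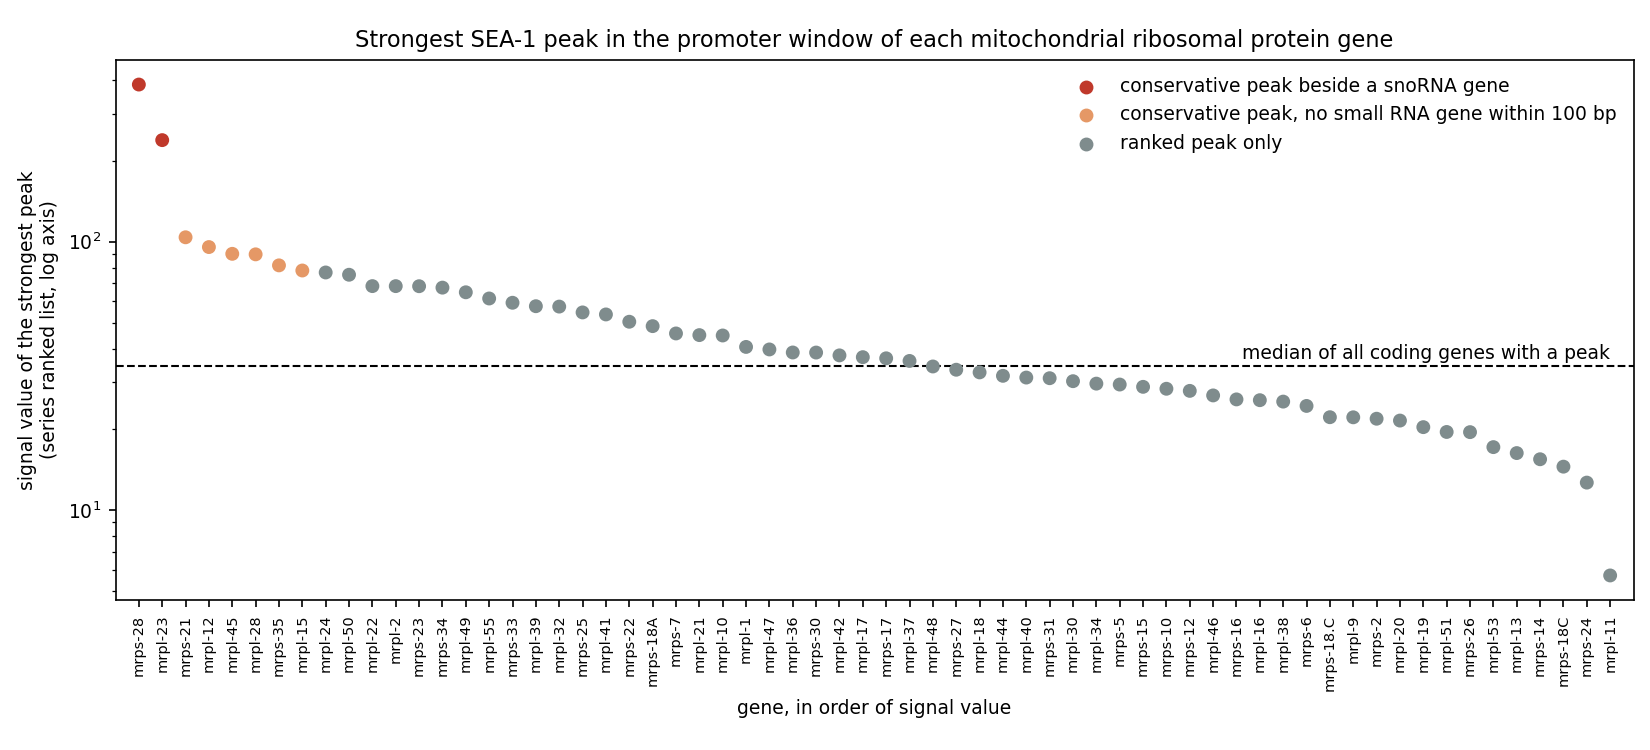
Signal value of the strongest peak in the promoter window (series ranked list, log axis) for each of the 64 members that had one, in order; each point is 1 gene, coloured by whether the peak is in the conservative list and beside a snoRNA gene, and the dashed line is the median of all coding genes with a peak (34.4). The 2 genes beside snoRNA genes stand at 239 and 385, and the next gene, mrps-21, is at 104.

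The other 6 conservative peaks had signal values from 78.1 to 104, where the median of the whole list was 95.5. At mrps-21, a small subunit gene, the peak (IV:4660350-4660669) had a signal value of 104, with 37.5 in replicate 1 and 53.9 in replicate 2. The overlapping peak of replicate 1 had its own summit outside the window, and the strongest one of that replicate inside it had 23.1. The series summit was 993 bp upstream of mrps-21, and nearer to F29B9.11 (309 bp) and to jmjd-1.2 (481 bp), a histone demethylase gene of the mitochondrial stress response. F29B9.11 is on the strand of mrps-21 and ends 113 bp before it, and the summit was upstream of all 3 genes.

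At mrpl-12, the gene for the flexible stalk protein of the large subunit, the peak (III:10707118-10707437) had a signal value of 95.5, with 42.9 in replicate 1 and 53.6 in replicate 2. Its summit lay 483 bp upstream of mrpl-12 and 250 bp upstream of the divergent gene Y39A1A.22. At mrpl-45, a large subunit gene, the peak (III:1202203-1202522) had 90.1, with 42.8 and 53.1, and lay 355 bp upstream of mrpl-45 and 183 bp upstream of the divergent gene Y119D3B.12. Both peaks thus lay in a stretch between a member and a neighbour that runs the other way.

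At mrpl-28, the gene for large subunit protein bL28m, the peak (II:155963-156282) had a signal value of 89.7, with 34.8 in replicate 1 and 52.8 in replicate 2. Its summit was intergenic, 114 bp upstream of mrpl-28, and no other coding 5′ end lay within 1500 bp. At mrpl-15, the gene for large subunit protein uL15m, the peak (I:1435351-1435670) had 78.1, with 38.6 and 35.9, and its intergenic summit, 768 bp upstream, likewise had no other coding 5′ end within 1500 bp. At mrps-35, a small subunit gene, the peak (V:18981033-18981352) had 81.6, with 43.1 and 39.1. Its summit lay 113 bp upstream of mrps-35 and 43 bp upstream of the nearest of several 5′ ends of sws-1 on the other strand, inside a 5′ UTR of sws-1.

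Fewer members were in the replicates' own thresholded lists. The own list of replicate 1 had a summit in the window of 2 members (2.86%), mrps-28 and mrpl-23, against 1.54% of coding genes. That of replicate 2 had 4 (5.71%), the same 2 genes with mrps-21 and mrpl-12, against 1.57%. The second thresholded list from both replicates had 7 of the 70, all but mrps-35, against 3.28% of coding genes. Membership of the conservative list ended between mrpl-15, with a −log10 IDR of 2.02, and mrpl-24, with 1.93. The signal values of those genes, 78.1 and 76.8, differed little.

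The count also rested on the far end of the window. From 500 bp upstream to 100 bp downstream, 4 members had a conservative summit (5.71%, interval 2.24 to 13.8), mrpl-12, mrpl-45, mrpl-28 and mrps-35, against 2.29% of coding genes. A further conservative peak (I:4175755-4176074, signal value 136) lay just outside, with its summit 1141 bp upstream of mrps-6, near the snoRNA gene R12E2.17 and inside rpn-8, a proteasome gene. It was the only one outside the window when members were searched to 2000 bp upstream and 1000 bp downstream.

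**Figure D2:**
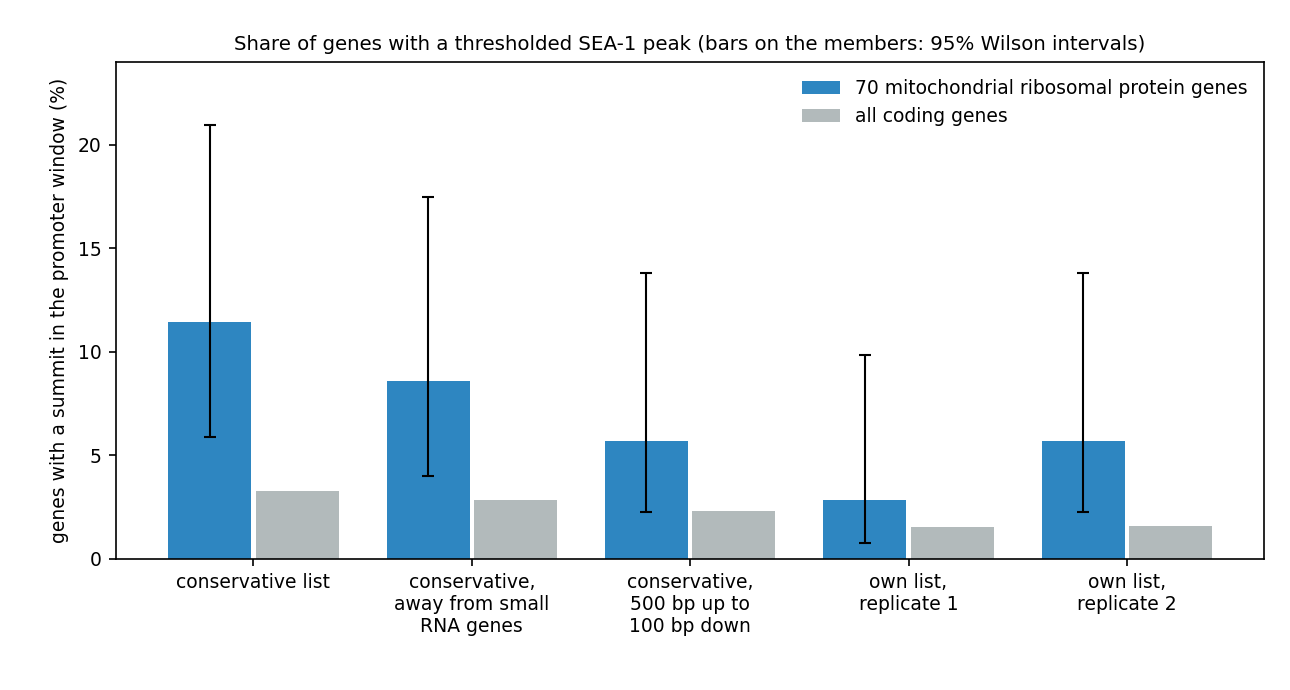
Percent of genes with a peak summit in the promoter window (y axis) in the conservative list, in that list without peaks near small RNA genes, in that list with a narrower window, and in the own thresholded list of each replicate; blue bars are the 70 members with 95% Wilson intervals and grey bars all coding genes. The members run from 2.86% to 11.4% and all coding genes from 1.54% to 3.28%.

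Weaker peaks were listed at most members. The ranked series lists are not cut at an IDR of 0.01, so a peak there need not be reproducible. In the ranked list that gave the IDR values, members outside the conservative list ran from a −log10 IDR of 1.93 at mrpl-24 down to 0.101. Many had no more than the 0.614 of mrpl-1, and several, mrps-26 among them, stood at 0.101. The counts and medians below thus describe listed peaks, most of them not reproducible at that threshold. In the series ranked list, which holds 103831 peaks, 64 of the 70 had a summit in the window (91.4%, interval 82.5 to 96.0), against 69.9% of all coding genes. Their strongest peaks had a median signal value of 37.0, with quartiles of 25.8 and 59.8, against a median of 34.4 for coding genes with a peak, and 34 of the 64 were above that median. The order of these medians depended on the window. From 500 bp upstream to 100 bp downstream the median was 29.6 for the members and 30.6 for coding genes, and from 250 bp upstream to 50 bp downstream it was 40.1 and 28.6. In the ranked list of replicate 1 it was 25.1 for the members and 21.3 for coding genes. The list of replicate 2 gave 24.5 and 20.6. The large subunit genes with a peak (38 of 41) had a median of 38.2 and the small subunit genes (26 of 29) of 32.2. Conservative peaks were at 5 large and 3 small subunit genes. The spread within each subunit, with quartiles of 27.5 and 64.0 for the large and 24.8 and 53.5 for the small, was wider than this difference.

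Below the conservative list the strongest large subunit genes were mrpl-24 and mrpl-50. The mrpl-24 peak had a signal value of 76.8 in the series list, with 37.9 in replicate 1 and 34.9 in replicate 2, and its summit lay 801 bp upstream in a coding exon of zipt-11, which ends 92 bp before mrpl-24. At mrpl-50 the peak had 75.3, with 31.6 and 39.8, and its summit lay 3 bp inside the gene. At mrpl-2, the gene for a protein known from other ribosomes to lie by the peptidyl transferase centre, the peak had 68.3, with 28.5 and 39.9. At all 3 genes both replicates had an overlapping ranked peak.

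At other genes the ranks within the 2 replicate lists, whose values have no stated common scale, lay further apart. The peak of the small subunit gene mrps-34 had a signal value of 67.4 in the series list and lay between it and the divergent gene cisd-3.1. It had 46.7 in replicate 1 (rank 1010) and 18.3 in replicate 2 (rank 28249). The peak of mrpl-49 had 43.4 (rank 1331) and 18.0 (rank 29092) and lay at the start of rpl-28, a gene of the cytosolic ribosome. At mrps-15 the ranks went the other way, with 5.52 in replicate 1 (rank 65158) and 20.8 in replicate 2 (rank 21140). The peak assigned to mrps-5 had 29.4 in the series list, lay in a coding exon of sel-1, 686 bp upstream, and had no overlapping ranked peak in either replicate.

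Across the 35 members whose strongest series peak overlapped a ranked peak of both replicates, log10 signal values of the replicates had a Pearson correlation of 0.65 and a Spearman correlation of 0.51. Without mrps-28 and mrpl-23 these were 0.38 and 0.41 over 33 genes. The correlations are descriptions across genes, which share the libraries. For the strongest peak of each replicate in the window they were 0.64 and 0.49 over 43 members, and 0.51 and 0.43 over 9048 coding genes.

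**Figure D3:**
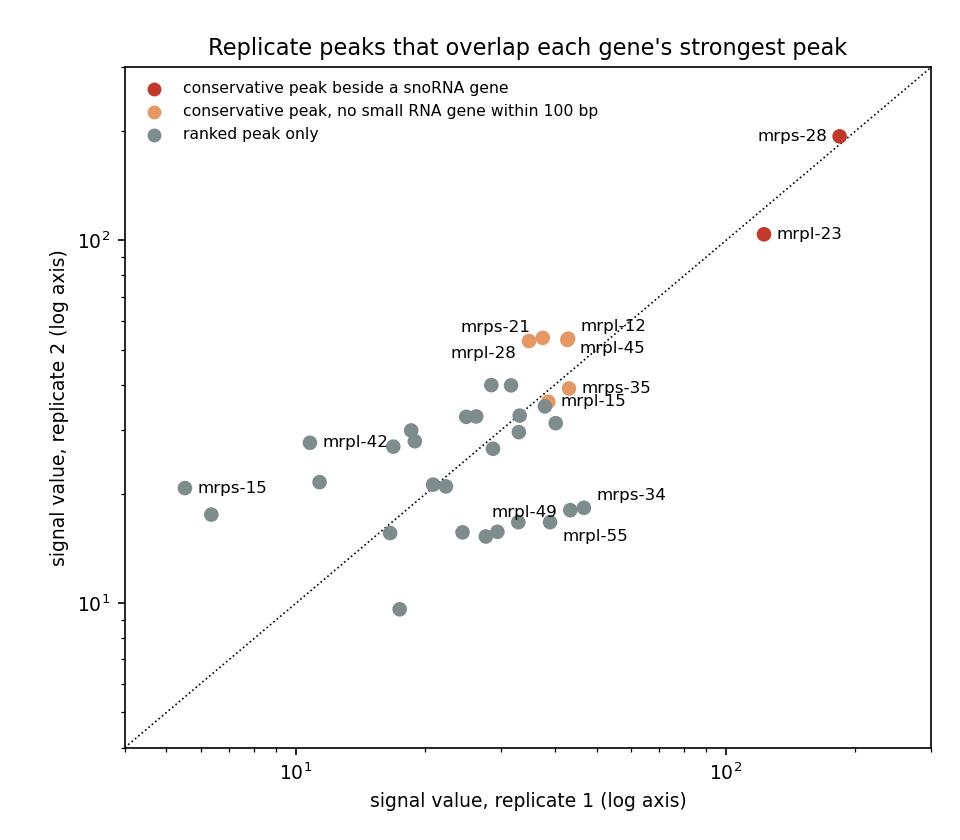
Signal value in replicate 1 (x axis) and replicate 2 (y axis), both log axes, of the ranked peaks that overlap the strongest series peak of 35 members. The dotted line marks equal values, though the 2 lists have no stated common scale. The genes mrps-28 (184 and 193) and mrpl-23 (123 and 104) stand apart from the rest, and mrps-34, mrpl-49 and mrpl-55 lie below the line.

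A ranked peak in both replicates was found at 43 of the 70 members (61.4%, interval 49.7 to 72.0), against 45.3% of coding genes. A further 9 had one in replicate 1 only: mrpl-36, mrps-30, mrps-17, mrps-12, mrpl-46, mrps-18C, mrpl-16, mrps-18B and mrpl-4, with signal values there from 11.9 at mrpl-4 to 26.6 at mrpl-36. Another 9 had one in replicate 2 only: mrpl-47, mrpl-54, mrpl-18, mrpl-38, mrpl-51, mrps-14, mrpl-11, mrpl-53 and mrps-24, with values there from 8.74 at mrps-24 to 34.4 at mrpl-47. The last 9, mrps-5, mrps-6, mrps-18.C, mrps-2, mrps-26, mrpl-13, mrps-11, mrpl-35 and mrps-9, had no summit in the window in either. At mrps-26 a replicate 1 peak of 13.7 overlapped the series peak, with its own summit outside the window. Of the 6 members with no series peak, mrps-11, mrpl-35 and mrps-9 had no ranked peak in any list used. The other 3 were mrpl-54, with 29.8 in replicate 2, and mrps-18B and mrpl-4, with 12.8 and 11.9 in replicate 1.

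The strongest series summits were spread over the whole window, and many were at other genes. Most of these peaks are not in the conservative list, so their positions are those of listed peaks and not of reproducible binding. Of 64, 24 lay within 200 bp of the member's 5′ end (37.5%), the same share as in all coding genes (37.5%), and 11 lay more than 800 bp upstream (17.2%, against 13.5% of coding genes). The median position was 363 bp upstream in the members and 334 bp in coding genes. The member's own 5′ end was the closest coding 5′ end, ties included, for 41 of 64 (64.1%, interval 51.8 to 74.7), against 82.6% of coding genes. By annotation 30 of the summits lay in coding exons (46.9%, against 23.7% for coding genes) and 24 were intergenic (37.5%, against 51.4%). A further 6 lay in introns (9.38%, against 16.9%), 2 in 5′ UTRs (3.1%, against 5.43%) and 2 in 3′ UTRs (3.1%, against 2.55%). Of the 64 summits, 30 also lay in the promoter window of another coding gene (46.9%, against 22.7% for coding genes).

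**Figure D4:**
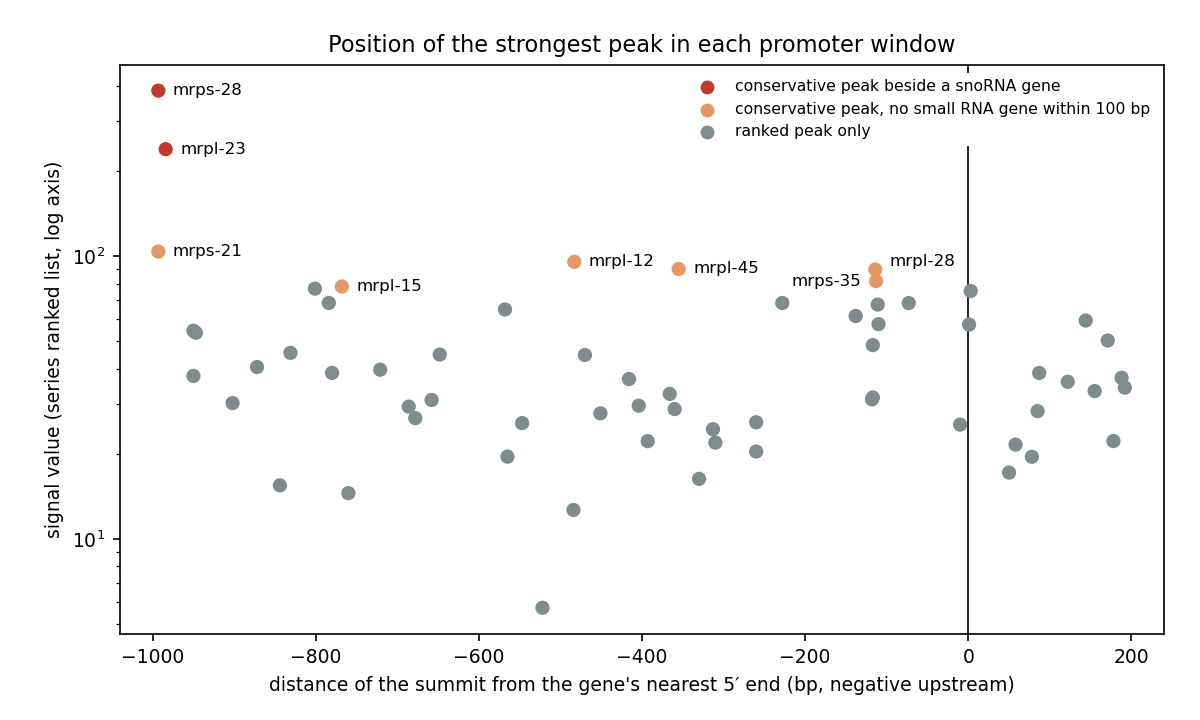
Distance of the strongest series summit from the member's nearest 5′ end (x axis, bp, negative upstream) and its signal value (y axis, log axis) for 64 members, coloured as in the plot of signal values by gene. The 3 peaks of highest value, at mrps-28, mrpl-23 and mrps-21, lie 993, 984 and 993 bp upstream, while mrpl-28 and mrps-35 lie 114 and 113 bp upstream.

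The members sit close to other genes. A coding gene upstream on the same strand lay less than 500 bp away for 29 of 70 members (41.4%), against 20.6% of coding genes, with a median gap of 105 bp, and 22 of the 29 gaps were of 150 bp or less. Such spacing is typical of operons, but no operon annotation was used. Among them were 2 sets of mitochondrial ribosomal genes: mrpl-4 starts 105 bp after mrps-2, and mrps-22 starts 105 bp after dap-3, which encodes a further small subunit protein. Conservative peaks were at 2 of the 29 closely spaced members, mrpl-23 and mrps-21, and at 6 of the other 41 (6.90% and 14.6%). The same split of coding genes gave 2.33% and 3.53%. Of the 25 closely spaced members with a series peak, 10 had its summit inside the upstream gene. The share among closely spaced coding genes was not computed, so this count has no background. Nor were gap sizes summarised for those coding genes, so the median gap and the count of short gaps have none either.

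A divergent neighbour, whose outermost 5′ end lay within 1000 bp head to head with no overlap of the genes, was present at 26 members (37.1%), against 17.7% of coding genes. Of these 26, 3 had a conservative peak (mrps-28, mrpl-12 and mrpl-45; 11.5%), and of the 44 others 5 had one (11.4%). The same split of coding genes gave 7.15% and 2.45%. With any annotated 5′ end of both genes, a definition added after the data had been seen, 28 of the 70 members had a divergent neighbour, against 18.7% of coding genes. These included mrps-35, which faces an inner 5′ end of sws-1, so that 4 of 28 and 4 of the other 42 had a conservative peak. The shares were 14.3% and 9.52%, and this split of coding genes gave 6.97% and 2.44%. The genes mrpl-1 and mrps-24 are themselves divergent, with 344 bp between their 5′ ends. Their strongest series peaks were different ones of 40.6 and 12.7, and neither was conservative.

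The T-box core GGTGTGA was found in no member promoter, from 250 bp before to 50 bp after the outermost 5′ end on both strands, while 2.29% of all coding promoters held it. It was in none of the 64 windows of 100 bp to either side of the strongest series summits, against 1.78% for coding genes. The B box core GGTTCGA was at 1 of the 8 conservative summits, that of mrps-28, and at 14.4% of all conservative summits. CTGCGTCT was in 3 member promoters (4.29%), those of mrpl-20, mrpl-36 and mrps-7, against 3.54% of all, and TTCCCGCC in none, against 1.10%. None of these 4 motifs lies within another on either strand. No match says only that these letters are not in these windows.

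CGCAAAC was chosen after the sequences had been read, as 1 of 13 7-mers shared by 3 or more of the 8 windows of 121 bp around the conservative summits, and it was not tested. It was present once at mrpl-12, once at mrpl-28 and 2 times at mrpl-45, on either strand, and in none of the other 5 windows. The windows of mrpl-28 and mrpl-45 shared a run of 13 bases that includes it, the longest run shared by any 2 of the 8. It was in 2.40% of windows of that length at all conservative summits and in 1.64% at the strongest series summits of coding genes. In promoters it was in 8 of 70 members (11.4%) and in 3.10% of all coding genes. The promoter of mrpl-28 contains its summit window, so an occurrence that led to the choice of CGCAAAC is counted again here. The promoter shares are thus no independent support.

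Other genes of mitochondrial gene expression were set beside the members. Of 18 genes for mitochondrial translation factors, dap-3 and tRNA charging enzymes, 1 had a conservative peak, ears-2, a glutamyl-tRNA synthetase gene (signal value 380, summit 25 bp upstream). Of 7 genes for mitochondrial DNA maintenance and transcription, 2 had one: mma-1, the LRPPRC homolog that acts on mitochondrial RNA (138, 608 bp upstream, beside the small RNA gene C14C10.8), and mtss-1, the mitochondrial single-stranded DNA binding protein gene (131, 216 bp upstream). Of 13 protein import genes none had one. The shares were 5.56%, 28.6% and 0%, against 3.28% of all coding genes. These are small lists, whose 95% Wilson intervals were 0.988 to 25.8%, 8.22 to 64.1% and 0 to 22.8%.

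For the cytosolic ribosome, 14 of 81 ribosomal protein genes had a conservative peak (17.3%, interval 10.6 to 26.9), against 3.28% of all coding genes. All but 1 of these peaks lay away from small RNA genes. Their peaks were at rpl-3 (384), rpl-15 (268), rpl-20 (189), rps-26 (174), rps-19 (167), rps-28 (163), rpl-35 (138), rpl-7A (128), rps-20 (122), rps-24 (111), rpl-12 (107), rps-1 (97.1), rpl-38 (85.6) and rpl-11.2 (80.2), all signal values of the conservative list. Own list summits were at 11 of the 81 in each replicate, against 2 and 4 of the 70 mitochondrial genes. The median of the strongest series peaks was 47.3 in the cytosolic and 37.0 in the mitochondrial genes, and a ranked peak in both replicates was at 82.7% and 61.4%. The difference between these lists was not tested. The peak of the highest signal value among mitochondrial genes, at mrps-28 (385), lay beside a snoRNA gene, and that among cytosolic genes, at rpl-3, beside none.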

How the data were processed

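SEA-1 peaks were taken from narrowPeak lists that the authors deposited on ce11, per the labels. Per the texts deposited with the samples, a series list was made from reads of both replicates and an own list from reads of 1 replicate. No source used here names the aligner or peak caller, and the read depth behind the lists is unknown. The deposited signal value has no stated normalization. The deposited score of the ranked lists was read as −log10 of the IDR. The ranked series list named in the rule held 1243 of the 1249 conservative peaks, 996 of them at a score of 2 or more. The other held all 1249 at 2 or more and gave the IDR values of members.

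Genes came from Ensembl release 115 and sequences and product names from RefSeq, both WBcel235. Chromosome lengths hold every peak, and all 70 members start with ATG in the sequence. The lists for comparison held 26, 7 and 16 symbols, of which 18, 7 and 13 matched. Members and lists were chosen with earlier results of these data known. No test was run: shares carry Wilson intervals (scipy 1.17.1), and values are described beside all coding genes. Assignment of summits to windows was checked on planted peaks. Genes named were those with a conservative peak, the 10 of highest series signal value, those with no series peak or a peak in 1 replicate only, and those near small RNA genes. Beyond that rule, mrpl-2, mrps-5, mrps-15, mrps-34, mrpl-49, mrpl-55, the genes with a peak in neither replicate, with CTGCGTCT or with a deviating RefSeq name, mrps-6 and the pairs of neighbours were added once their values were known. Alternatives changed the window, the 5′ ends, the overlap rule, the list, the replicate and the distance to small RNA genes.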

Additional observations from a re-analysis of the deposited data

How the results depend on the processing

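With 8 members at a conservative peak, the count was 4 in a window of 500 bp upstream to 100 bp downstream, 2 in a window of 250 bp upstream to 50 bp downstream, 4 among conservative peaks at or above their median signal value, and 2 to 4 with the own list of 1 replicate. The shares of all coding genes were 2.29%, 1.36%, 1.98% and 1.54% to 1.57% in that order, against 3.28% in the main setting. The count of members was 6 to 9 with the second list, any overlap of 1 bp, outermost 5′ ends, distinct peaks or peaks away from small RNA genes. Coding genes had 2.85% to 3.62% in these, with no share computed for distinct peaks. The median signal value of 37.0 was 29.6 in the window of 500 bp upstream to 100 bp downstream and 24.5 to 25.1 in the ranked list of 1 replicate, whose values are on their own scale. It was 35.4 to 40.1 under the others, with 40.1 in the window of 250 bp upstream to 50 bp downstream, where coding genes had 28.6. Members with a ranked peak in both replicates, 43, numbered 21 in the window of 500 bp upstream to 100 bp downstream, 6 in that of 250 bp upstream to 50 bp downstream, and 2 by the own thresholded lists. By the own thresholded lists coding genes had 1.01%. The 2 members with a strongest peak near a small RNA gene fell to 0 in both narrower windows, and to 0 for summits inside such a gene, against 0.716% of coding genes with a peak. For the counts in both replicates and near small RNA genes, no share of coding genes was computed in the narrower windows. These windows and lists hold fewer summits by construction. No paired analysis was possible because the study has 1 group and no test was run. The depth limits which weak peaks were listed, by an amount that could not be measured.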

Other observations

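Members with a conservative peak lay on 5 chromosomes, 2 of 15 on I, 1 of 12 on II, 2 of 22 on III, 1 of 11 on IV and 2 of 10 on V. No share of all coding genes was computed by chromosome, so these small counts have no background and show no pattern. No member is on X, so these genes say nothing of binding there. Member promoters had a median GC content of 32.3%, against 34.3% in all coding genes.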
